A study of Homo sapiens with 38 samples.

Results

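The comparison described here set MS177-N1 against its vehicle, DMSO, in T47D-TR cells, an established human breast cancer cell line. Its members were the 2 libraries of MS177-N1 (2.5 uM, 48 h) and the 2 libraries of DMSO (0.125%, 48 h), 4 of the 38 samples of the series, and all 16802 genes of the authors' table for this pair. All groups grew in medium with serum and insulin, and RNA was sequenced as polyadenylated transcripts. The other groups used beside them were MS177, MS177-N2 and C24 in T47D-TR (2.5 uM, 48 h) and MS177-N1 and DMSO in BT-549, with 2 libraries each, and in T47D MS177-N1 with 1 library used and DMSO with 2. Whether replicates came from separate cultures is not in the labels. The p-values thus reflect the spread between these libraries alone, which may be technical.

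Polycomb repressive complex 2 (PRC2) methylates histone H3 and keeps target genes silent, and EZH2 is its enzyme. A PROTAC is a molecule that binds a protein and an E3 ubiquitin ligase at once, so that the proteasome degrades the bound protein. MS177 is such a degrader directed at EZH2, and MS177-N1 and MS177-N2 are its negative control compounds. C24 is an EZH2 methyltransferase inhibitor. FOXM1 is a transcription factor that drives genes of mitosis and is named beside EZH2 in the title of the study. A control compound against vehicle asks which transcripts differ when the degrader itself is absent.

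Levels are normalized counts, obtained by undoing the authors' log2 transform. Log2 differences are MS177-N1 minus DMSO on the deposited log2 scale, which compresses low counts, and are given ± SE. Estimated depth was 10.7 and 8.63 M reads for MS177-N1 and 14.6 and 15.4 M reads for DMSO. Luminal markers matched the breast epithelial label, with KRT8 at 130870 and 151110 normalized counts in MS177-N1 and 114780 and 96153 in DMSO, while only 3 of 15 immune and 1 of 8 endothelial markers were listed and no member of either list was high enough to test. Of 11 basal and myoepithelial markers 6 were listed and 2 were high enough to test. Of 11 fibroblast and mesenchymal markers 6 were listed and 1 was high enough to test. The latter summed to 128 and 183 normalized counts in MS177-N1 and 160 and 151 in DMSO. VIM, a mesenchymal marker, lay at 2.44 and 6.34 in MS177-N1 and 6.46 and 4.48 in DMSO. In bulk RNA, fewer cells of a type and less RNA per cell cannot be told apart.

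The direct target of the degrader was first read at the transcript level. EZH2 (hg38 chromosome 7, 148807383 to 148884291) had 251 and 260 normalized counts in MS177-N1, against 208 and 220 in DMSO. The difference was 0.14 ± 0.10 on the log2 scale (limma, adjusted p = 0.326), with a 95% interval of -0.09 to 0.36. FOXM1 had 1067 and 1095 normalized counts in MS177-N1, against 1171 and 1395 in DMSO, a log2 difference of -0.20 ± 0.13 (limma, adjusted p = 0.249). Neither passed the threshold. These are transcripts, and protein was not measured here.

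Across the table, 10578 genes were high enough to test and 2906 of them (27.5%) passed an adjusted p of 0.05 with limma. Of these, 1573 (14.9%) rose and 1333 (12.6%) fell with MS177-N1. Without a test, both MS177-N1 libraries lay above both DMSO libraries in 34.3% of the tested genes and below both in 37.5%. The calls rested on few libraries. Without DMSO replicate 2, or without MS177-N1 replicate 2, the same test called far fewer genes. With all 5 T47D-TR groups at 48 h fitted together on log2(normalized count + 1), 5 genes were called, none of them a rise. That fit changed the scale as well as the estimate of the spread. Those 5 were SAMHD1, TMEM189-UBE2V1 and 3 clone-named genes. All counts that follow describe these 4 libraries.

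**Figure D1:**
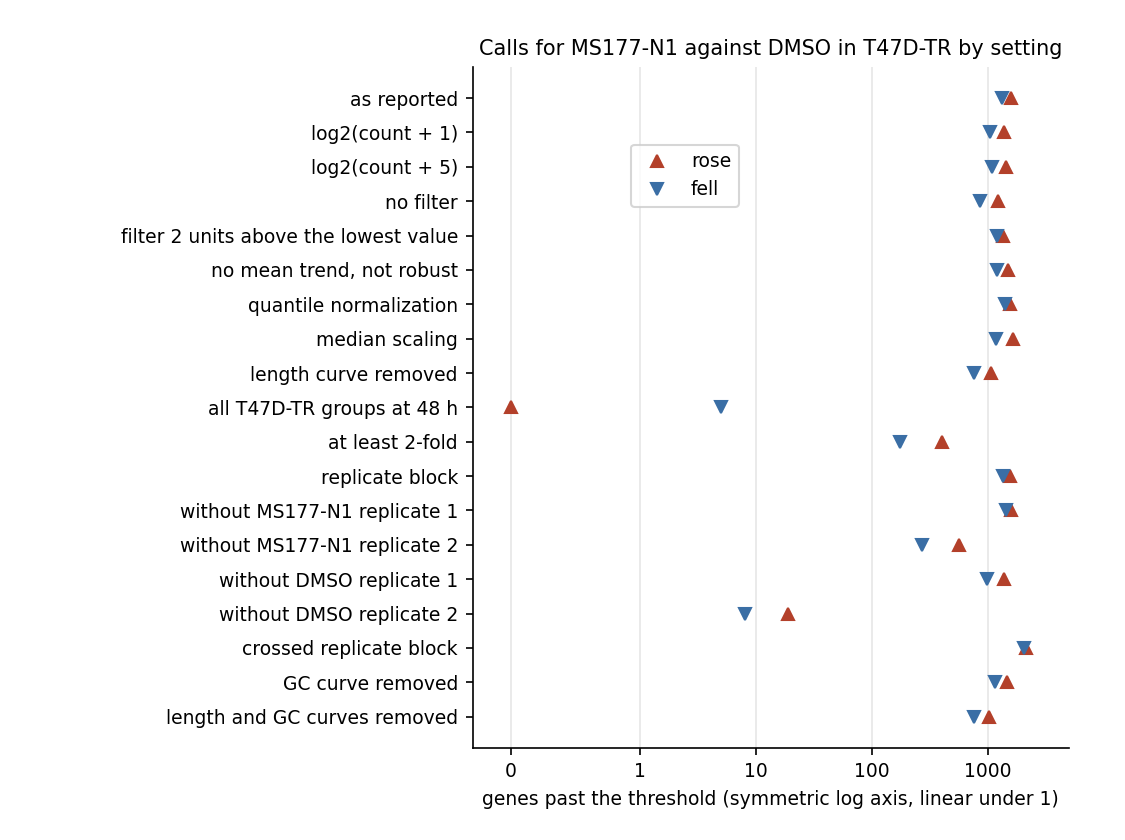
Genes that rose or fell with MS177-N1 against DMSO in T47D-TR under each setting of the test (symmetric log axis). The number drops from 1573 rises and 1333 falls to 19 and 8 without DMSO replicate 2, and to 0 and 5 when all T47D-TR groups share the estimate of the spread.

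The 12 largest rises held genes of the ribosome and of mitochondrial energy production, beside others without a shared role. RPS27A, which encodes a fusion of ubiquitin and a protein of the small ribosomal subunit, had 18778 and 30414 normalized counts in MS177-N1 libraries, against 8542 and 4906 in DMSO libraries. It was 3.66-fold higher, a log2 difference of 1.84 ± 0.30 (limma, adjusted p = 0.00725). COX6C, a subunit of cytochrome c oxidase, had 4207 and 6097 normalized counts in MS177-N1, against 1814 and 1201 in DMSO, and was 3.42-fold higher. ATP5D, a subunit of mitochondrial ATP synthase, had 1932 and 2923 in MS177-N1, against 847 and 603 in DMSO. ROMO1, a mitochondrial inner membrane protein, had 2272 and 2875 in MS177-N1 against 1034 and 609 in DMSO. In each of these genes DMSO replicate 2 was the lowest library and MS177-N1 replicate 2 the highest.

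NUCKS1, a chromatin-associated nuclear phosphoprotein, had 22405 and 27071 normalized counts in MS177-N1, against 6792 and 6713 in DMSO. The 2 DMSO libraries differed by less than the 2 MS177-N1 libraries, and it was 3.66-fold higher with MS177-N1, a log2 difference of 1.82 ± 0.16 (limma, adjusted p = 0.000165). The level of NUCKS1 in those same DMSO libraries was not set alike in the authors' other tables. Relative to the median gene it stood 0.40, 0.68 and 0.54 log2 units higher in the tables of MS177, MS177-N2 and C24, so the authors scaled it apart from other genes. A factor shared by all 4 libraries of a table leaves a fold as it is and one that differs between groups does not, and which of these holds was not tested. PTMA (prothymosin alpha) had 42560 and 71176 normalized counts in MS177-N1 against 21598 and 18548 in DMSO. DYNC1H1, the heavy chain of cytoplasmic dynein and a transcript of 20003 nt, had 641 and 1332 in MS177-N1 against 217 and 165 in DMSO, which was 5.17-fold higher. DMSO libraries of T47D had 13750 and 9938 for DYNC1H1 and those of BT-549 17819 and 24568, each on its own table's scale. Why the T47D-TR level was so much lower was not tested, so this fold is uncertain. The other rises were BCYRN1, a small noncoding RNA that resembles Alu repeats and whose reads are hard to assign, SELENOH, CCDC85B, GSDMD and RPS19. The DMSO levels of ATP5D and GSDMD also differed between tables by up to 0.25 and 0.20 log2 units from the median gene.

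**Figure D2:**
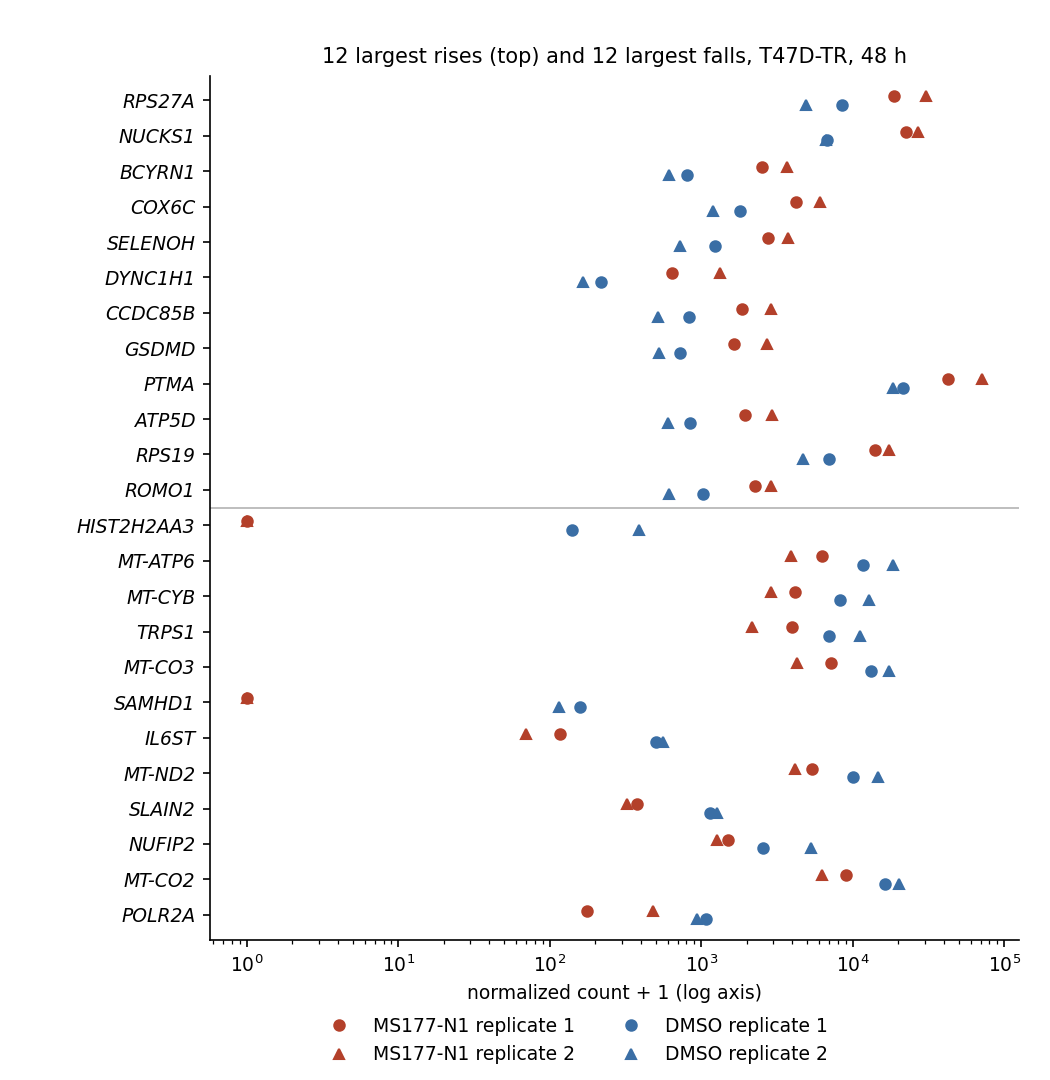
Normalized counts plus 1 (log axis) of the 12 largest rises and 12 largest falls in the 2 MS177-N1 and 2 DMSO libraries of T47D-TR. The groups do not overlap in any of the 24 genes, which the choice of genes required, and SAMHD1 and HIST2H2AA3 stand at 0 in both MS177-N1 libraries.

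The largest falls held transcripts made inside mitochondria and a few genes that were not detected. MT-ATP6, which encodes a subunit of ATP synthase, had 6275.5 and 3901 normalized counts in MS177-N1, against 11760 and 18342 in DMSO. It was 2.96-fold lower, a log2 difference of -1.52 ± 0.26 (limma, adjusted p = 0.00603). MT-CYB (cytochrome b) had 4163 and 2872 in MS177-N1 against 8225 and 12850 in DMSO, and MT-CO3 and MT-CO2 (cytochrome c oxidase) and MT-ND2 (complex I) were 2.68-fold, 2.40-fold and 2.59-fold lower. DMSO replicate 2 was the highest library in each of these 5 mitochondrial genes, and MS177-N1 replicate 2 the lowest.

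SAMHD1, a hydrolase that lowers the pool of DNA building blocks and restricts viruses, was at 0 in both MS177-N1 libraries, against 159 and 114 normalized counts in DMSO. A count of 0 allows up to 3 reads, about 3.44 and 4.46 normalized counts in these libraries at the estimated depth, so the gene was at least 34.5-fold lower. This covers counting error only. The log2 difference on the deposited scale was -1.34 ± 0.10 (limma, adjusted p = 7.81e-05). SAMHD1 (hg38 chromosome 20, 36889773 to 36951708) was the only one of the 24 genes past the threshold in every fit that tested it. Its DMSO level differed by at most 0.01 log2 units from that of the median gene between tables.

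Other genes were also at 0 in both MS177-N1 libraries and at 50 or more in both DMSO libraries. HIST2H2AA3, a histone H2A gene with a near-identical copy in the genome, had 140 and 385 normalized counts in DMSO, at least 66.4-fold more. Reads can be split between such copies, so its level is uncertain. TMEM189-UBE2V1, a readthrough transcript that overlaps both of its parent genes, had 105 and 106 in DMSO and was at least 26.7-fold lower, with the same uncertainty. The fourth was AC090094.1, a clone-named gene, with 78.2 and 79.7 in DMSO. In the other direction, the clone-named gene RP5-864K19.6 had 225 and 377 normalized counts in MS177-N1, against 0.273 and 0.686 in DMSO. TMEM189-UBE2V1 and both clone-named genes were chosen after their values were seen.

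IL6ST, the shared signal-transducing receptor of the interleukin-6 family, had 115 and 68.4 normalized counts in MS177-N1, against 501 and 558 in DMSO, and was 5.77-fold lower. SLAIN2, which promotes microtubule growth, had 377 and 321 in MS177-N1 against 1143 and 1273 in DMSO. Both genes were scaled differently between tables, with the DMSO libraries up to 1.69 log2 units lower for IL6ST and up to 0.65 lower for SLAIN2 in the other tables than here, relative to the median gene. For NUFIP2 and POLR2A that difference reached -0.37 and 0.25 log2 units. TRPS1, a GATA-type repressor of luminal breast cells, had 3960 and 2166 in MS177-N1 against 6931 and 11175 in DMSO. POLR2A, the largest subunit of RNA polymerase II, had 176 and 480.5 in MS177-N1 against 1072 and 940 in DMSO, and NUFIP2, an RNA-binding protein, had 1507 and 1279 in MS177-N1 against 2558 and 5288 in DMSO. In DMSO of T47D, on that table's scale, IL6ST had 9446 and 8511 and POLR2A 14161 and 10864. Why both stood so much lower in T47D-TR was not tested. Of the 2905 called genes found in the 4 T47D-TR tables, 17.2% had a DMSO level over 0.2 log2 units from the median factor in at least 1 table, against 12.6% of all 10576 tested ones.

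Transcript length moved with the result. Among 10369 tested genes with a known length, the difference between MS177-N1 and DMSO had a Spearman correlation of -0.529 with length, a description over genes that share libraries. Of 488 genes between 500 and 1000 nt, 57.6% rose and 1.64% fell. Of 775 genes over 8000 nt, 4.65% rose and 30.3% fell. The difference between the 2 DMSO libraries (replicate 1 minus replicate 2) followed length nearly as strongly, with -0.515, and that between the MS177-N1 libraries (replicate 2 minus replicate 1) with -0.236. Short genes were highest in MS177-N1 replicate 2, then MS177-N1 replicate 1, DMSO replicate 1 and DMSO replicate 2, and long genes stood in the reverse order.

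**Figure D3:**
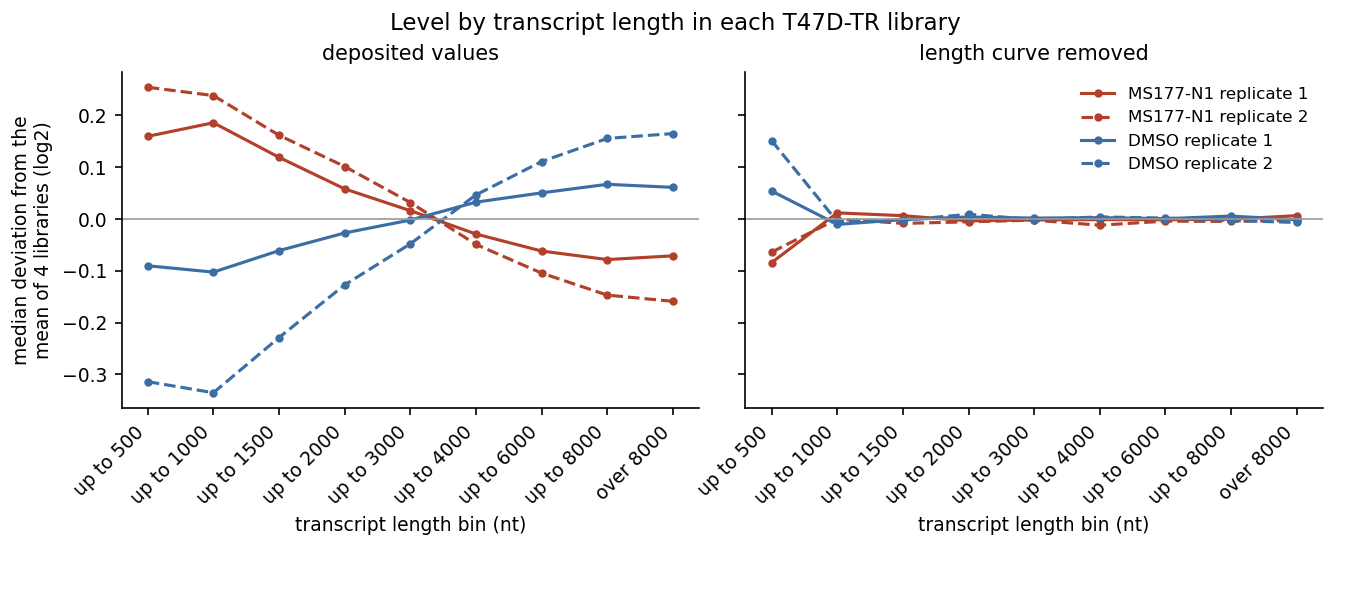
Median deviation of genes from their mean over the 4 T47D-TR libraries (log2) by transcript length, in the deposited values and after a length curve was removed from each library. At 500 to 1000 nt the medians are 0.19 and 0.24 in MS177-N1 and -0.10 and -0.34 in DMSO, and over 8000 nt they are -0.07 and -0.16 in MS177-N1 and 0.06 and 0.17 in DMSO.

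Removing from each library a smooth curve of its deviation on transcript length left 1828 of 10369 genes past the threshold with limma (17.6%), 1069 rises (10.3%) and 759 falls (7.32%). Of the 2838 calls whose genes have a length, 1350 passed again, all in the same direction. All of the 24 largest rises and falls kept their call, with log2 differences of 0.88 to 2.04 for the rises and -2.26 to -1.02 for the falls. With the curve removed, leaving out DMSO replicate 2 left 13 calls and leaving out MS177-N1 replicate 2 left 230.

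Cytosolic ribosomal protein genes encode the proteins of the ribosome, and 52 of 79 tested rose while none fell, with a median log2 difference of 0.62 against -0.02 over all tested genes. Of all tested genes 14.9% rose and 12.6% fell. RPL13A, of the large subunit, had 48579 and 59629 normalized counts in MS177-N1, against 24862 and 16909 in DMSO. RPS14, of the small subunit, had 20215 and 25145 in MS177-N1 against 10896 and 7313 in DMSO. Such genes have many processed copies in the genome that can share reads. Their summed share of all normalized counts was 8.59% and 8.89% in MS177-N1 and 6.52% and 5.12% in DMSO. The median length of these genes was 1004 nt. Of all genes of 500 to 1000 nt 57.6% rose, and of those of 1000 to 1500 nt 40% did. With the length curve removed 35 of the ribosomal protein genes rose and 3 fell, with a median of 0.32, against 10.3% and 7.32% of all genes. Without DMSO replicate 2 none passed, and without MS177-N1 replicate 2 there were 30 rises.

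Nuclear-encoded genes of the respiratory chain were mostly higher, and the mitochondrially encoded ones lower. Of 64 nuclear genes tested, 44 rose and none fell, with a median log2 difference of 0.71, where 14.9% of all tested genes rose and 12.6% fell. NDUFA13, a complex I subunit, had 2944 and 3583 normalized counts in MS177-N1, against 1321 and 846 in DMSO, and NDUFC2, also of complex I, had 3635 and 4510 in MS177-N1 against 1885 and 1318 in DMSO. Of the 13 mitochondrially encoded transcripts, 10 fell and none rose, with a median of -0.93, and all 13 had negative differences. MT-ND3, MT-ND6 and MT-ATP8 did not pass, with log2 differences of -0.45, -0.53 and -0.47. Mitochondrial transcripts made up 0.73% and 0.51% of the sum in MS177-N1, against 1.20% and 1.65% in DMSO.

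Both lists hold short transcripts, with medians of 1037.5 nt for the nuclear genes and 784 nt for the mitochondrial ones. After the length curve was removed, 32 of the nuclear genes rose and 4 fell (median 0.37), and 11 of the mitochondrial transcripts fell (median -1.45). Of all genes 10.3% then rose and 7.32% fell. The calls still rested on DMSO replicate 2. Without it 1 nuclear gene rose and no mitochondrial transcript passed, and without MS177-N1 replicate 2 there were 32 nuclear rises and 7 mitochondrial falls. With all T47D-TR groups in the fit no member of either list passed.

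**Figure D4:**
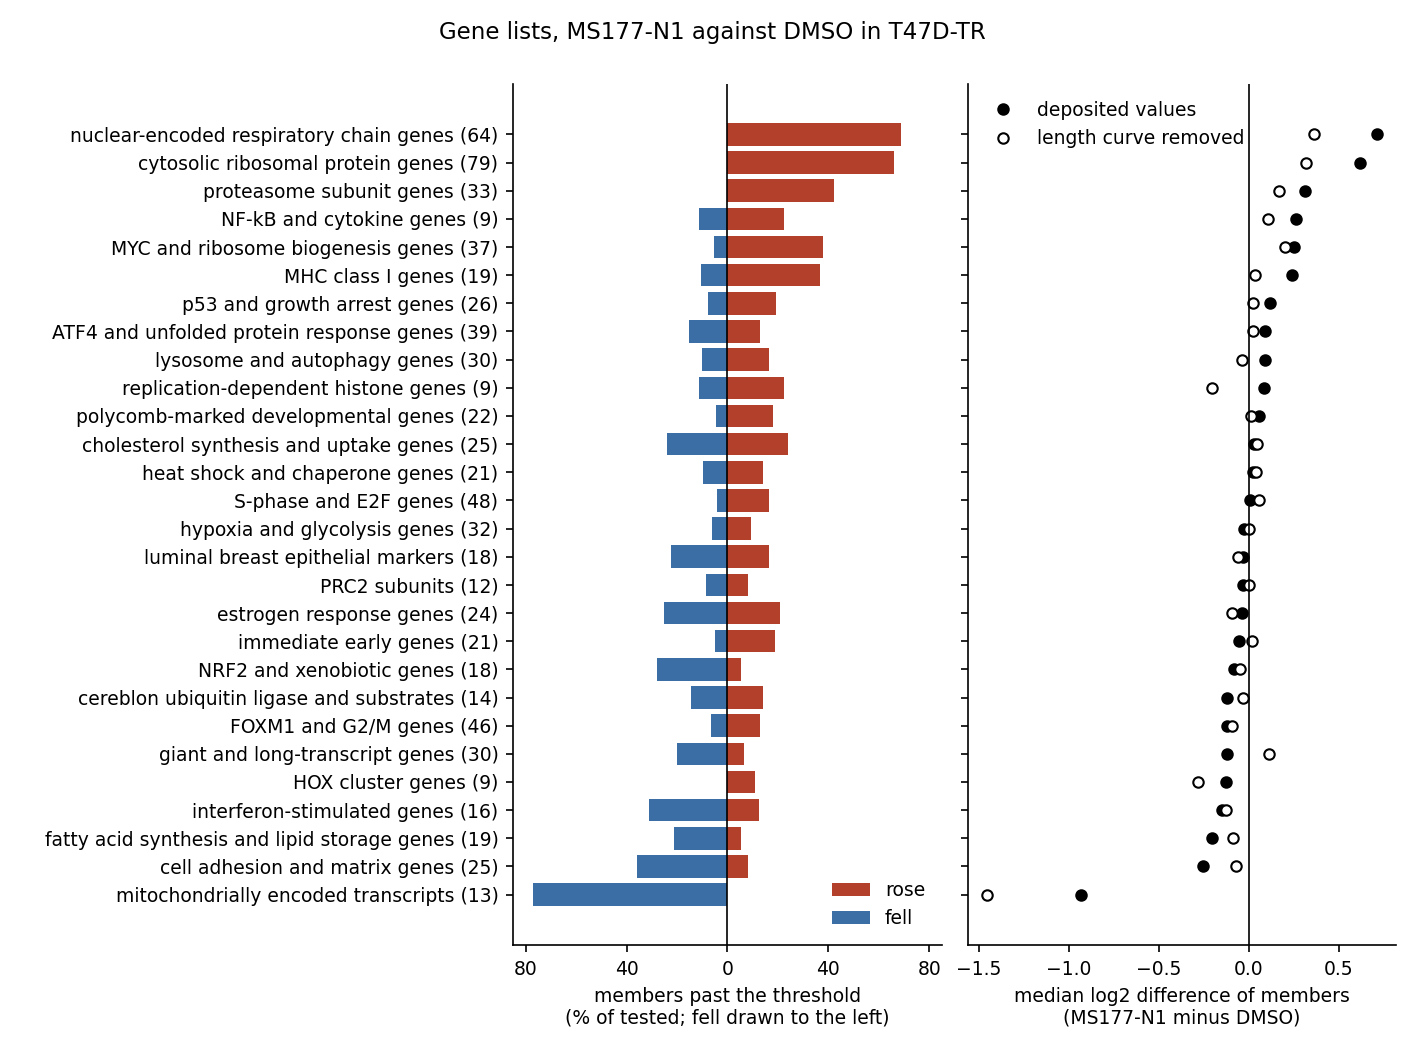
Share of tested members of each gene list that rose or fell with MS177-N1 against DMSO in T47D-TR, and the median log2 difference of the members before and after the length curve was removed (number tested in brackets). Respiratory chain, ribosomal protein and proteasome genes have the highest medians before the curve was removed, and mitochondrially encoded transcripts the lowest before and after.

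Proteasome subunits, the machinery through which degraders act, showed 14 rises and no falls among 33 tested, with a median log2 difference of 0.31. PSMA2, of the core particle, had 3559 and 4021 normalized counts in MS177-N1, against 2174 and 1367 in DMSO. PSMB4, another core subunit, had 7352 and 8473 in MS177-N1 against 5031 and 3646 in DMSO. With the length curve removed 8 rose and 1 fell. The cereblon ubiquitin ligase and its known substrates gave 2 rises and 2 falls among 14, near the 14.9% and 12.6% of all tested genes. With the length curve removed they also gave 2 and 2, against 10.3% and 7.32% of all genes. The ligase subunit RBX1 had 848 and 945 in MS177-N1 against 526 and 388 in DMSO, and the substrate CSNK1A1 had 2621 and 2032 in MS177-N1 against 3381 and 3420 in DMSO. CRBN, the substrate receptor, had 937 and 856 in MS177-N1 against 821 and 709 in DMSO and did not pass (limma, adjusted p = 0.289); it was added to the named genes after its value was seen. Without DMSO replicate 2 no member of either list passed, and without MS177-N1 replicate 2 there were 5 proteasome rises.

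PRC2 subunits showed no shared direction, with 1 rise and 1 fall among 12 tested and a median log2 difference of -0.03. With the length curve removed 2 rose and none fell. PHF19, an accessory subunit that recruits PRC2 to chromatin, rose to 730 and 796 normalized counts in MS177-N1, against 554 and 451 in DMSO. JARID2, another accessory subunit, fell to 203 and 135 in MS177-N1, against 241 and 290 in DMSO, and missed the threshold with the length curve removed (limma, adjusted p = 0.347). EED, the subunit that reads methylated histone, had 142 and 121 in MS177-N1 against 76.8 and 89.8 in DMSO, a log2 difference of 0.26 ± 0.10 that did not pass (limma, adjusted p = 0.0676). EZH1 and SUZ12 did not pass either, with -0.16 ± 0.12 and -0.26 ± 0.12. Among developmental genes that PRC2 marks in other cells, 4 of 22 rose and 1 fell, with a median of 0.06. The share that rose was near the 14.9% of all tested genes. With the length curve removed 5 of the 22 rose and 1 fell, against 10.3% and 7.32% of all genes. The share that rose was then above that of all genes. The homeobox genes PITX1 (5061 and 6610 in MS177-N1 against 2874 and 2368 in DMSO) and IRX3 (2092 and 2463 in MS177-N1 against 1227 and 953 in DMSO) and the cell cycle inhibitor CDKN2A were among the rises, and DLX2 was the fall.

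Genes of mitosis that FOXM1 drives gave 6 rises and 3 falls among 46, with a median log2 difference of -0.12. The securin gene PTTG1 had 2260 and 2712 normalized counts in MS177-N1, against 1528 and 1103 in DMSO. The mitotic kinesin KIF20A had 717 and 530 in MS177-N1 against 1056 and 1065 in DMSO. Genes of DNA replication and S phase gave 8 rises and 2 falls among 48, with a median of 0.01, among them the flap endonuclease FEN1 (2386 and 3232 in MS177-N1 against 1699 and 1441 in DMSO) as a rise and the helicase subunit MCM4 (203 and 195 in MS177-N1 against 307 and 506 in DMSO) as a fall. MYC did not pass, with 910 and 844 in MS177-N1 against 1046 and 1040 in DMSO, but did with the length curve removed, with a log2 difference of -0.46 (limma, adjusted p = 0.0242). That shift depends on the annotated length used for MYC, 1365 nt. The median log2 difference was 0.28 for genes of 1000 to 1500 nt and 0.05 for those of 2000 to 3000 nt. Other lengths for MYC were not tested. Without MS177-N1 replicate 2 the mitotic list gave 1 rise and 1 fall and the replication list none. In the fit of all libraries both lists lay near or below the 14.9% of all tested genes that rose and the 12.6% that fell. With the length curve removed the mitotic list gave 5 rises and 5 falls and the replication list 7 rises and no falls. Of all genes 10.3% then rose and 7.32% fell, so the mitotic falls and the replication rises were above the share over all genes.

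Ribosome biogenesis genes rose in 14 of 37 and fell in 2, with a median of 0.25, where 14.9% of all tested genes rose and 12.6% fell. The rRNA processing factor PES1 had 1576 and 2395 normalized counts in MS177-N1 against 1226 and 1012 in DMSO, and the pseudouridine synthase DKC1 had 2011 and 2299 in MS177-N1 against 1348 and 1165 in DMSO. Antigen presentation genes of MHC class I rose in 7 of 19 and fell in 2, with the immunoproteasome subunit PSMB10 at 379 and 514 in MS177-N1 against 193 and 130 in DMSO. With the length curve removed the counts were 8 rises and 3 falls for ribosome biogenesis and 3 rises and 1 fall for MHC class I. Of all genes 10.3% then rose and 7.32% fell. The ribosome biogenesis rises stayed above that share, and the MHC class I counts were near it. Without DMSO replicate 2 no member of these lists passed, and without MS177-N1 replicate 2 there were 2 and 3 rises.

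Cell adhesion and matrix genes, whose transcripts are long (median 5924 nt), gave 9 falls and 2 rises among 25, with a median of -0.25. Of all tested genes 12.6% fell and 14.9% rose, and with the length curve removed 7.32% fell and 10.3% rose. Fibronectin (FN1) had 99.1 and 73.7 normalized counts in MS177-N1, against 217 and 196 in DMSO, and the integrin ITGB4 had 1982 and 1698 in MS177-N1 against 2743 and 3341 in DMSO. With the length curve removed 1 fell and 3 rose, and without MS177-N1 replicate 2 there was 1 fall. The laminin genes LAMB2 (6015 and 7997 in MS177-N1 against 3567 and 2839 in DMSO) and LAMA5 (2920 and 4725 in MS177-N1 against 2070 and 2314 in DMSO) were the 2 rises. Very long transcripts, listed as such, gave 6 falls and 2 rises among 30, with a median of -0.12, and 6 falls and 3 rises with a median of 0.11 after the length curve was removed. Falls of very long transcripts were above the share over all genes in both fits. Adhesion and matrix falls were above it only before the curve was removed. UTRN, which encodes utrophin, had 576 and 426 in MS177-N1 against 976 and 1208 in DMSO, while MYCBP2, an E3 ubiquitin ligase, had 612 and 695 in MS177-N1 against 284 and 311 in DMSO. The authors' scaling of LAMB2, LAMA5 and MYCBP2 differed between tables by up to 0.50, 0.60 and 0.70 log2 units from the median gene. That of PHF19, IRX3, FN1, MCM4 and DKC1 differed by up to 0.32, 0.45, 0.23, 0.21 and 0.22. For MANF and SEL1L, given below, it differed by up to 0.235 and 0.206.

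Lipid genes went in both directions. In cholesterol synthesis and uptake, 6 of 25 rose and 6 fell, against 14.9% and 12.6% of all tested genes, and the named rises were synthesis enzymes, PMVK, MVD, EBP and FDPS. PMVK, phosphomevalonate kinase, had 2344 and 3363 normalized counts in MS177-N1, against 1206 and 829 in DMSO. In fatty acid synthesis 4 of 19 fell and 1 rose, among them ACLY, which makes cytosolic acetyl-CoA, with 5643 and 4655 in MS177-N1 against 7435 and 8561 in DMSO. The estrogen response list gave 5 rises and 6 falls among 24. FOXA1, a pioneer factor of luminal cells, fell to 2809 and 2347 in MS177-N1 against 4008 and 4649 in DMSO, and IGFBP4, an estrogen-induced binding protein of insulin-like growth factors, rose to 6595 and 7344 in MS177-N1 against 4469 and 3544 in DMSO. With the length curve removed the rises and falls were 6 and 2 for cholesterol, 0 and 2 for fatty acid and 3 and 4 for estrogen response genes, against 10.3% and 7.32% of all genes. The prolactin receptor PRLR had 20069 and 14162 in MS177-N1 against 28166 and 36868 in DMSO.

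Stress, signalling and marker lists are read against the 14.9% of all tested genes that rose and the 12.6% that fell. The unfolded protein response list gave 5 rises and 6 falls among 39, with the ER-resident factor MANF at 1642 and 1941 in MS177-N1 against 922 and 535 in DMSO and the ER degradation adaptor SEL1L at 2046 and 1810 in MS177-N1 against 3546 and 4235 in DMSO. Interferon-stimulated genes gave 2 rises and 5 falls among 16, SAMHD1 among the falls, with OAS3 at 754 and 591 in MS177-N1 against 1094 and 1320 in DMSO and the membrane tether BST2 at 7079 and 9292 in MS177-N1 against 4934 and 3837 in DMSO. Genes of p53 and growth arrest gave 5 rises and 2 falls among 26, hypoxia and glycolysis 3 and 2 among 32, and NRF2 and xenobiotic response 1 and 5 among 18. The falls of the interferon and NRF2 lists were above the share over all genes, and with the length curve removed each of these lists had 2 falls, beside 1 rise. Heat shock genes gave 3 and 2 among 21, with HSP90AA1 at 84944 and 114580 in MS177-N1 against 55221 and 46396 in DMSO. Lysosome and autophagy genes gave 5 and 3 among 30, immediate early genes 4 and 1 among 21, NF-kB genes 2 and 1 among 9, replication-dependent histones 2 and 1 among 9, HOX genes 1 and 0 among 9 and luminal markers 3 and 4 among 18. With the length curve removed 10.3% of all genes rose and 7.32% fell. Rises and falls were then 4 and 4 for the unfolded protein response, 2 and 1 for p53 and 2 and 2 for hypoxia. For heat shock they were 1 and 3, for lysosome 5 and 5, for immediate early 3 and 2 and for NF-kB 0 and 0. Histone and HOX genes gave 0 and 3 among 9 each, and luminal markers 0 and 2. Of these lists, the histone and HOX falls lay furthest above the share over all genes. Without DMSO replicate 2 no list had more than 1 call, SAMHD1 in the interferon list and HIST2H2AA3 in the histone list among them. Without MS177-N1 replicate 2 the lists of cholesterol, estrogen response and unfolded protein response genes gave 2 and 0, 1 and 1, and 2 and 1 rises and falls. The cholesterol falls also dropped to 2 without MS177-N1 replicate 1 and to 1 without DMSO replicate 1.

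The genes that separated MS177-N1 from DMSO also separated replicates of groups that did not enter that fit. Of the 1573 rises, 1544 (98.2%) were higher in C24 replicate 2 than in C24 replicate 1, and of the 1333 falls only 48 (3.6%) were, against 50.3% of all 10578 tested genes. RPS27A had 6650 normalized counts in C24 replicate 1 and 21487 in C24 replicate 2, and MT-ATP6 had 19521 and 4975. In all 12 rises and all 12 falls with the largest differences, C24 replicate 2 lay beyond C24 replicate 1 and both DMSO libraries in the direction of MS177-N1, whereas C24 replicate 1 lay beyond both DMSO libraries in 1 rise and 3 falls. In DMSO of BT-549, another line, replicate 1 was above replicate 2 in 91.7% of 1473 rises and 9.6% of 1281 falls, against 51.1% of all genes. The same held for MS177-N1 of BT-549, with 92.1% and 7.81%, against 51.8%. In T47D-TR, MS177-N2 replicate 1 was above replicate 2 in 91.5% of rises and 14% of falls, against 51.3% of all genes. MS177 replicate 2 was above replicate 1 in 84.5% and 15.2%, against 47.9%. The order within each pair was taken as the one in which the rises were higher.

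With the length curve removed, C24 replicate 2 was above C24 replicate 1 in 97.1% of 1069 rises and 5.27% of 759 falls. The corresponding shares for DMSO of BT-549 were 88% of 1029 and 19.2% of 717. They were 88.4% and 18.5% for MS177-N1 of BT-549, 87.5% and 10.7% for MS177-N2 and 84.2% and 17.5% for MS177. Estimated depth in C24 was 15.7 M reads in replicate 1 and 10.6 M in replicate 2, so C24 replicate 2 and both MS177-N1 libraries were the 3 shallowest of the T47D-TR libraries at 48 h. The median of short genes (up to 1000 nt) minus that of long genes (over 6000 nt), against the DMSO mean, was 0.83 and 1.03 log2 units in MS177-N1, -0.15 and 0.55 in C24 replicates 1 and 2, 0.14 and 0.40 in MS177, and 0.12 and -0.21 in MS177-N2. The 2 DMSO libraries themselves stood at 0.25 and -0.25. The part of depth or of these library differences in the result was not tested.

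**Figure D5:**
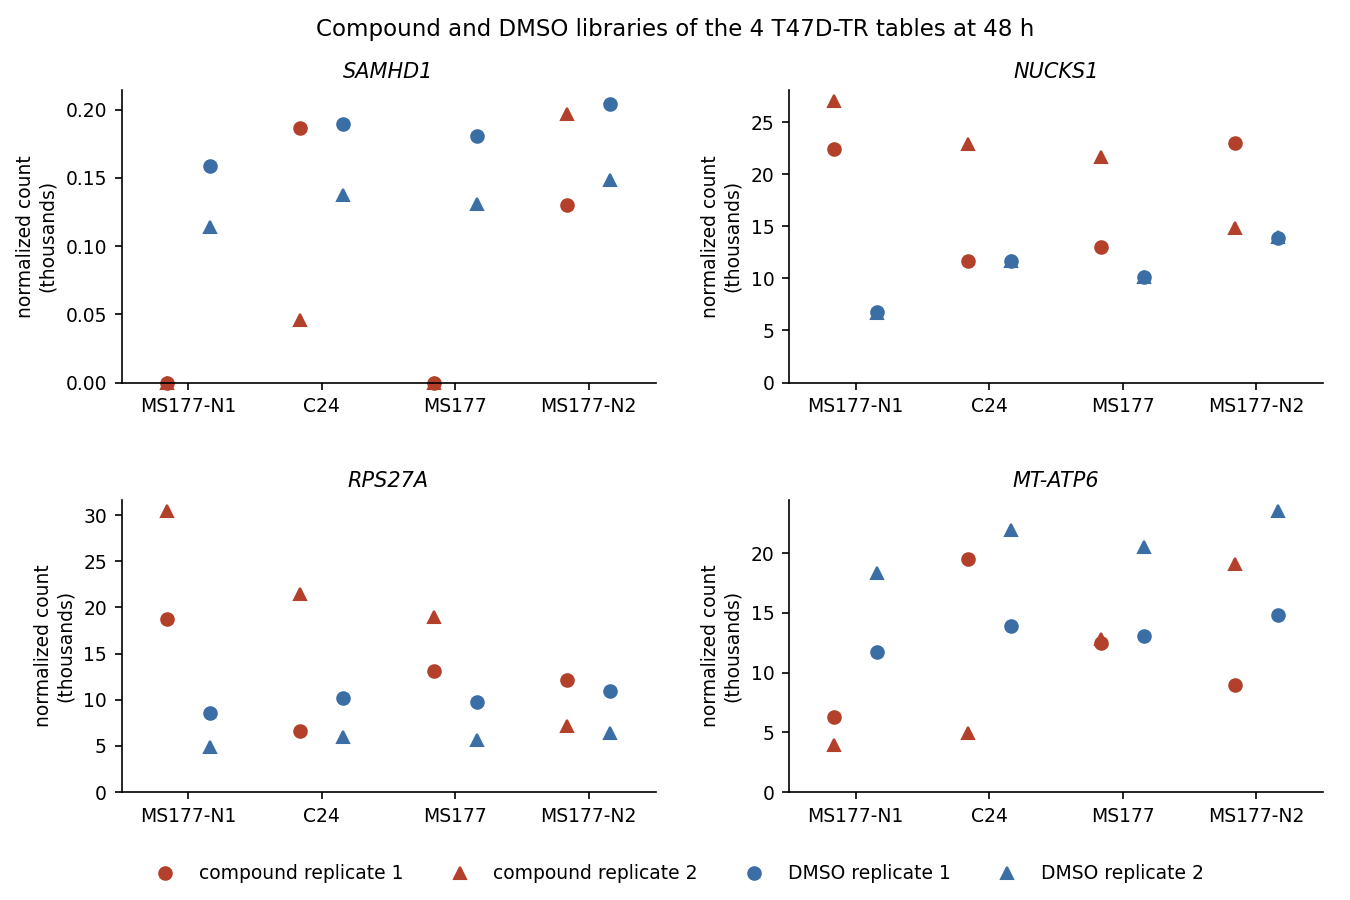
Normalized counts (axis divided by 1000) of 4 genes in the compound and DMSO libraries of each T47D-TR table at 48 h, where the DMSO libraries are the same and only their scaling differs. C24 replicate 2 stands near the MS177-N1 libraries for RPS27A and MT-ATP6, and SAMHD1 is at 0 in MS177-N1 and MS177. For NUCKS1 it stands at 22895, but its DMSO libraries there are at 11681 and 11711. Beside MS177-N1 (22405 and 27071) the NUCKS1 DMSO libraries are at 6792 and 6713, so these levels are not on 1 scale.

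MS177-N1 was next compared directly with the 3 other compounds at the same dose and time, on log2(normalized count + 1), with p-values adjusted over 14796 genes in each pair. Against MS177, 7602 genes (51.4%) passed with limma, 3993 higher (27%) and 3609 lower (24.4%) with MS177-N1. Of the mitotic genes 45 of 46 were higher in MS177-N1, with a median log2 difference of 2.65, against 0.05 over all genes. FOXM1 itself had 1067 and 1095 normalized counts in MS177-N1 and 231 and 234 in MS177, each on its own table's scale, a log2 difference of 2.40 (limma, adjusted p = 4.52e-06). EED was 1.58 log2 units higher and MYC 0.63 lower in MS177-N1, and EZH2 did not pass, with -0.28 (limma, adjusted p = 0.122), but did with the length curves removed, with -0.35 (limma, adjusted p = 0.0455). The largest differences included GJA1 (connexin 43), with 259 and 70.5 in MS177-N1 against 0 and 0 in MS177, and INHBE, an activin subunit, with 29.2 and 10.1 in MS177-N1 against 2558 and 2465 in MS177. With the length curves removed 7684 of 13674 genes passed (56.2%, 27.6% higher and 28.6% lower), and 44 of the mitotic genes were higher.

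SAMHD1 did not separate MS177-N1 from MS177, since it was at 0 in all 4 libraries. Against MS177-N2 it did. SAMHD1 was at 0 in both MS177-N1 libraries and had 130 and 197 normalized counts in MS177-N2, a log2 difference of -6.96 ± 0.60 (limma, adjusted p = 0.00169). Against C24 it had 187 and 45.8 in C24, a difference of -6.29 ± 0.60 (limma, adjusted p = 0.0160). Such differences from 0 depend on the added count and are no estimate of size. TMEM189-UBE2V1 went the same way in both comparisons.

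Against the other negative control, MS177-N2, 1440 genes (9.73%) passed, 723 higher (4.89%) and 717 lower (4.85%) with MS177-N1, and 4.26% with the length curves removed (2.3% higher and 1.97% lower). The count fell to between 9 and 132 when any single library of the 3 groups was left out (27 without either DMSO library, 132 without MS177-N1 replicate 1, 20 without MS177-N1 replicate 2, 9 without MS177-N2 replicate 1 and 19 without MS177-N2 replicate 2). IKBKE, a kinase of innate immune signalling, had 159 and 219 normalized counts in MS177-N1 and 13.3 and 23.1 in MS177-N2 on its table's scale, where its DMSO libraries had 326 and 298, against 184 and 166 in the table of MS177-N1. The secreted protein gene OAF had 77.0 and 59.8 in MS177-N1 and 6.90 and 10.8 in MS177-N2, a log2 difference of 3.42 ± 0.31 (limma, adjusted p = 0.00277). Of 79 ribosomal protein genes 22 were higher in MS177-N1, and 5 after the length curves were removed. FOXM1 and EZH2 did not pass, with -0.25 and 0.33.

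Against C24, 7 genes (0.0473%) passed with limma, 1 higher (0.00676%) and 6 lower (0.0406%) with MS177-N1, while 2916 had an unadjusted p under 0.05. Without C24 replicate 2 the count was 2032. With the length curves removed 0.0439% passed (0.0146% higher and 0.0293% lower). MMAA, a mitochondrial protein of vitamin B12 metabolism, was the gene that was higher, with 54.0 and 57.5 normalized counts in MS177-N1 and 0 in both C24 libraries, and the DMSO libraries of the MS177-N1 table had 1.14 and 6.63. FUT1, a fucosyltransferase, was lower, with 10.4 and 15.04 in MS177-N1 against 143 and 97.2 in C24. EZH2 and FOXM1 differed by 0.23 and -0.02 log2 units and did not pass (limma, adjusted p = 0.353 and 0.959). With this few calls the 2 compounds are not shown to act alike.

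In BT-549, MS177-N1 against DMSO gave 0 calls among 13934 genes (0%) with limma and unpaired libraries, 0 also on log2(normalized count + 1), and 309 genes at an unadjusted p under 0.05. Leaving out MS177-N1 replicate 1, MS177-N1 replicate 2, DMSO replicate 1 or DMSO replicate 2 gave 30, 10, 11 and 36 calls. Deviations of same-numbered BT-549 libraries correlated at 0.734 over genes, and the labels state no pairing. With the replicate number as a block many genes passed, as given in the closing section. The absence of calls thus depends on the fit and does not show that BT-549 did not respond. The relation to length had the opposite sign there, with a Spearman correlation of 0.51 over 13551 genes. The median log2 difference of ribosomal protein genes was 0.62 in T47D-TR and -0.33 in BT-549, where none of the 79 had a positive difference. RPS27A had 14520 and 10432 normalized counts in MS177-N1 against 20644 and 15242 in DMSO of BT-549. SAMHD1 there had 1915 and 2337 in MS177-N1 against 1883 and 2137 in DMSO. In the single MS177-N1 library of T47D, SAMHD1 had 2455 normalized counts against 2573 and 2333 in DMSO, and RPS27A had 15686 against 13527 and 16277.

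The response of T47D-TR minus that of BT-549 was tested as an interaction, and 13 of 12101 genes (0.107%) passed with limma, 5 higher (0.0413%) and 8 lower (0.0661%) in T47D-TR. SAMHD1 was one of them, with a log2 response of -7.08 in T47D-TR and 0.08 in BT-549 (limma, adjusted p = 0.000112). MYD88, an adaptor of innate immune receptors, had 24.6 and 24.9 normalized counts in MS177-N1 against 104 and 132 in DMSO of T47D-TR. In BT-549 it had 1660 and 1962 in MS177-N1 against 1735 and 1896 in DMSO. The authors' scaling of MYD88 differed between the T47D-TR tables by up to 0.46 log2 units from the median gene. NUCKS1 and SLAIN2 also passed. Leaving out a T47D-TR library gave 438 calls for MS177-N1 replicate 1 and 923 for DMSO replicate 1. Leaving out a BT-549 library gave 2160 and 5 for MS177-N1 replicates 1 and 2, and 4 and 7 for DMSO replicates 1 and 2. With the length curves removed 1081 of 12093 passed (8.94%, 5.39% higher and 3.55% lower).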

How the data were processed

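Polyadenylated RNA was extracted with RNeasy kits and made into libraries with the NEBNext Ultra II system, per the labels' protocols. RSEM, DESeq and hg38 are named, without versions or roles, in the submitters' processing notes. The deposited values are on a log2 scale and were taken as a variance-stabilizing transform that the authors computed in each table of 4 libraries. Normalized counts q were recovered as (2^v - 2 m)2 / 2^v, where v is the value and m the lowest one in the table, which is an assumption. As a check, the ratio of the 2 DMSO libraries recovered this way differed between tables by 1 constant, with a largest departure of 7.24e-13 log2 units over 16175 genes. The level of each DMSO library differed between tables by a factor that varies from gene to gene (SD 0.144 to 0.160 log2 units), so the authors' scaling has a part set per gene. Depth was estimated from the spacing of low values, the worth of 1 read, and is not a read total.

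Two-sided tests were run in limma 3.58.1 (R 4.3.3), with trend and robust options of the empirical Bayes step, with Benjamini-Hochberg adjustment over all tested genes and a threshold of 0.05. A gene was tested if 2 or more libraries lay over 1 unit above the lowest value. Comparisons between compounds and lines used log2(normalized count + 1) and genes that reached 10 normalized counts in 2 or more libraries, with tables of T47D-TR aligned gene by gene through the shared DMSO libraries. Folds are ratios of group means of normalized counts (n = 2 each). Length is that of the principal or longest transcript in GENCODE 29, known for 14908 of 16802 genes, and the length curve is a loess fit (span 0.3). Positions are from RefSeq on GRCh38. In the T47D table, 1 compound column is named for MS177-N2 and was not used as MS177-N1. Named genes were EZH2, EZH1, EED, SUZ12, FOXM1 and MYC, the 12 largest rises and falls whose groups do not overlap, up to 4 called members of each list and the 5 largest in each direction of the other comparisons. Members and gene lists were chosen with earlier results of these data known. The limma step and the length step were tested on simulated data. Alternatives were other added counts, filters, normalizations, fits over all groups, the replicate number as a block, leaving out each library, and length and GC curves.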

Additional observations from a re-analysis of the deposited data

Results flagged for a closer look

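The interaction test with unpaired libraries called 13 genes as differing in response to MS177-N1 between T47D-TR and BT-549 (limma, 2 libraries per group and line). With the length curves removed it called 1081, and it also called more with the replicate number as a block. The other genes are thus not shown to respond alike. Log2 values here are the T47D-TR response minus the BT-549 response. Genes with a higher response in T47D-TR were LRRC75A (4.25), NBPF26 (3.56), PPT2-EGFL8 (2.85), NUCKS1 (1.96) and WDR13 (1.59). NBPF26 belongs to a family of near-identical copies and PPT2-EGFL8 is a readthrough transcript, so their counts are uncertain. The authors' scaling of WDR13 differed between the T47D-TR tables by up to 0.26 log2 units from the median gene. LRRC75A had 276 and 494 normalized counts in MS177-N1 and 49.1 and 37.1 in DMSO of T47D-TR, and 732 and 437 in MS177-N1 and 1552 and 1037 in DMSO of BT-549.

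Genes with a lower response in T47D-TR were TMEM189-UBE2V1 (-7.18), SAMHD1 (-7.16), C22orf46 (-6.29), IKBKGP1 (-5.39), MYD88 (-2.19) and SLAIN2 (-1.89). The first 4 were at 0 in both MS177-N1 libraries of T47D-TR, so their values depend on the added count. IKBKGP1 is a pseudogene of IKBKG and can share its reads. C22orf46 had 101 and 43.2 normalized counts in DMSO of T47D-TR, and 697 and 771 in MS177-N1 and 606 and 652 in DMSO of BT-549. These 11 genes had adjusted p-values of 0.000112 to 0.0447 and passed again with the length curves removed, at 0.000252 to 0.0292.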

How the results depend on the processing

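For MS177-N1 against DMSO in T47D-TR, the 2906 calls became 1828 with the length curve removed, 1796 with length and GC curves removed, 576 when a 2-fold change was also asked for, and 5 with all T47D-TR groups in the fit. Leaving out 1 library gave 27 to 3023 calls, and 13 to 2441 with the length curve removed (230 without MS177-N1 replicate 2, 1153 without DMSO replicate 1). The share of rises among the calls was 54.1%, and 67.6% without MS177-N1 replicate 2, 70.4% without DMSO replicate 2 and 69.4% at 2-fold. The other settings, crossed pairing aside, gave 2077 to 2991. Of the 24 largest rises and falls 23 lost their call in at least 1 fit and none changed direction. In 4 list members that had risen, the log2 difference changed sign with combined changes: HSPB1 (-0.0442 with length and GC curves removed, -0.00735 with the length curve removed and without DMSO replicate 2), HSPE1 (-0.0107, length curve removed, without MS177-N1 replicate 1), IFI6 (-0.0323, length curve removed, without MS177-N1 replicate 2) and HIST1H4H (-0.0296, length curve removed, without DMSO replicate 1). The cause was not tested.

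Against MS177 the count of 7602 stayed within 1.5 times under each setting run. Against MS177-N2 the 1440 calls became 583 with the length curves removed and 3117 with the compared compounds and DMSO only, and 9 to 132 without 1 library. Against C24 the 7 calls became 6 with the length curves removed, 3 on log2(count + 5), 2 with the compared compounds and DMSO only, and up to 2032 without 1 library. In BT-549 leaving out 1 library gave 10 to 36. Between lines the 13 calls became 1081 with the length curves removed and 4 to 2160 without 1 library.

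Labels give only shared replicate numbers, so the libraries were not taken as paired. Deviations of same-numbered libraries correlated at -0.196 in T47D-TR and 0.734 in BT-549, over genes. With the replicate number as a block the counts were 2903 for MS177-N1 against DMSO in T47D-TR, 24 against MS177-N2, 3 against C24, 2883 in BT-549 and 1815 for the MS177-N1 response of T47D-TR against BT-549. With crossed pairing in T47D-TR, chosen after seeing the data like the length fits of the other comparisons and the GC fits, it was 4197. With 8.63 to 15.4 M estimated reads and 2 libraries per group, genes of few reads could be neither called nor excluded.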
